A study of Homo sapiens with 12 samples.

Results

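Regions of the human transcriptome that carried a called N4-acetylcytidine (ac4C) site in all 6 deposited site lists are described here. The 6 lists, 3 from wild-type (WT) and 3 from NAT10 knockout (KO) HK-2 cells, were merged wherever sites overlapped by at least 1 base, with strand not used, and a merged region was kept when every list had a site in it. This gave 2899 shared regions of 35919, or 8.07%. The regions were therefore chosen by the presence of a site in both genotypes, which is itself a measured outcome. Fold enrichment, score and false discovery rate come from the same comparison of pull-down over input that made the calls, so they are given as descriptions and without a test. The same holds for the length and number of the sites in a region, since the overlap of their coordinates chose the regions. The transcript part of a site follows from the same coordinates, so the p-values given for parts carry the same limit.

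N4-acetylcytidine is a cytidine with an acetyl group on its exocyclic nitrogen. NAT10 is the acetyltransferase that writes it, on transfer RNA and ribosomal RNA with partner proteins and, as reported from antibody mapping, on messenger RNA, where the mark has been linked to transcript stability and translation. In antibody mapping, fragments pulled down are compared with the input RNA, and a fragment that the antibody or beads retain for another reason is called in the same way as an acetylated one.

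HK-2 is an immortalised line of human proximal tubule epithelial cells, and the series title places the work in renal fibrosis. The samples were 12 libraries, an immunoprecipitated (IP) and an input library for each of 3 WT and 3 KO replicates, with no treatment named in the labels. The labels of the samples say NAT10 knockout and the text of the series says knockdown, and neither says whether the cells are 1 clone or how NAT10 was removed.

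The lists held 17541, 17107 and 15289 sites in WT replicates 1, 2 and 3 and 13818, 17872 and 19136 in KO replicates 1, 2 and 3. Site lists carry no read counts, so the depth behind a site is unknown. The authors' false discovery rate was high in the shared regions, though its median was lower there than over the other sites of every list. The median in shared regions was 55.0%, 56.4% and 61.1% in WT replicates 1, 2 and 3 and 59.9%, 48.1% and 36.6% in KO replicates 1, 2 and 3. Over the other sites it was 63.0%, 64.5% and 65.9% in WT and 82.0%, 64.7% and 49.2% in KO. The lowest value of any site in a shared region was 11.3%. The 1st KO list stood apart in its layout, because its gene columns and its coordinate columns are in different row orders. Its gene side was rejoined on equal score and length, no gene was named from it, and 102 of the 2899 shared regions remained without a fold from it. Values that use folds in all lists cover the other 2797 regions. NAT10 itself, the targeted gene, held 1 shared region among its 16 regions and 4 that were called in every WT list and by no KO list. The shared one, at 34161947 to 34162119 of chromosome 11, was placed in the coding sequence, with folds of 4.97, 7.27 and 5.25 in WT and 7.47, 6.08 and 4.95 in KO lists. Whether the NAT10 transcript was lost cannot be read from called sites.

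Coordinates are printed as the files give them, counted from 1. Only 12.97% to 13.6% of sites overlapped the GRCh38 span of the gene named beside them. The files are therefore on some other build, which none of the sources used here names, and no sequence of a region is printed.

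Presence in all lists was more frequent than presence in 4 or 5. Of all regions, 7171 had a site in 1 list, 6801 in 2, 15812 in 3, 1703 in 4 and 1533 in 5. Of the 15812 regions with 3 lists, most belonged to a single genotype: 7819 had a site in every WT list but not in KO (termed WT-only), and 7501 the reverse (KO-only). Among the 6867 regions with a site in both genotypes, 42.2% were shared by all 6 lists. Regions that missed a single list lacked KO replicate 1 in 652 cases and each of the other lists in 115 to 335, and KO replicate 1 was also the shortest list.

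**Figure D1:**
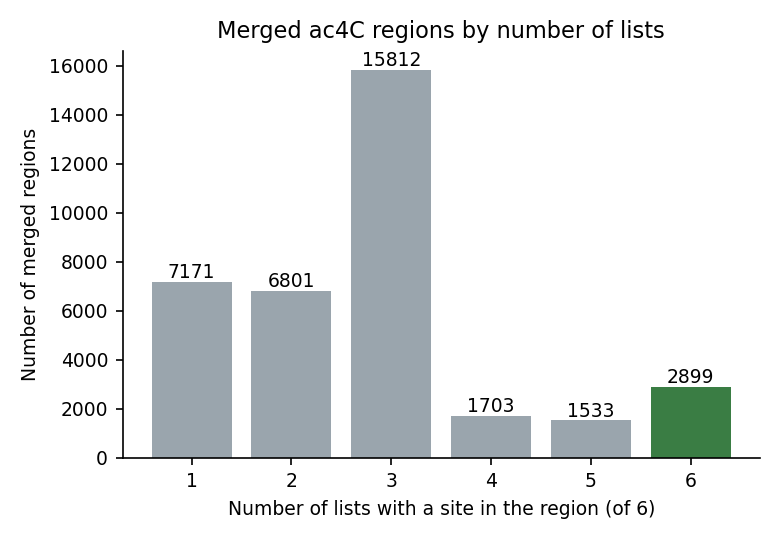
Number of merged regions (vertical axis) by the number of the 6 lists that have a site in them (horizontal axis). The bar at 6 lists (green) holds the 2899 shared regions and exceeds those at 4 and 5 lists, 1703 and 1533, while the tallest bar is at 3 lists, 15812.

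The share of a list that fell in these regions varied with its length. It was 17.1%, 17.5% and 19.5% of sites in WT lists 1, 2 and 3 and 21.3%, 16.5% and 15.5% in KO lists 1, 2 and 3, so that the shortest list had the highest share and the longest list the lowest. Exactly 1 site per list was found in 2722 of the shared regions, or 93.9%.

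Nearly all shared regions had bases called in every list. A base common to all 6 lists existed in 2836 regions, and the median number of common bases was 183 (quartiles 99 and 287). In the other 63 no base carried a site of every list, and the sites were joined in a chain. The median span was 255 bases (quartiles 150.5 and 541), against 154 for the regions that were not shared, and spans ran from 16 to 7539 bases. Start and end were identical in all 6 lists in 825 regions, 28.5% of the total. This was most frequent in the coding sequence, at 42.0% of its shared regions, and lower at the start codon (20.8%), in the 5' UTR (14.1%) and at the stop codon (9.91%). None of the 158 shared regions in the 3' UTR had identical bounds.

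Within a genotype the bounds of a site agreed more closely than between genotypes. For a pair of lists, the bases covered by both were divided by the bases covered by either in each shared region. The mean of this ratio was 0.923 to 0.963 for pairs of 1 genotype and 0.745 to 0.761 for a WT list against a KO list. Identical coverage was found in 68.9% to 80.1% of regions for pairs of 1 genotype and in 31.7% to 34.2% for pairs across genotypes. The 9 pairs across genotypes all lay below the 6 within genotypes on both measures, and KO replicate 1 did not stand apart from the other KO lists.

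Where the coverage differed, it was more often longer in KO. The 3 KO lists covered more bases than any WT list in 947 shared regions, 32.7% of all 2899, and the reverse held in 468, or 16.1%. KO coverage was longer in 51.9% of the shared regions in the 3' UTR, 44.8% at the stop codon, 40.8% in the 5' UTR, 32.5% at the start codon and 26.0% in the coding sequence. The corresponding shares longer in WT were 24.1%, 16.7%, 16.8%, 22.2% and 12.6%. The median length called per shared region was 215 ± 2 bases in WT and 230 ± 1 bases in KO lists (SD, n = 3 each), a difference of 15 bases, and every KO list had a higher median than every WT list. Single sites outside the shared regions differed in the same direction, with medians of 150 ± 2.65 and 161 ± 2 bases. Sites per shared region were 1.03 ± 0.00328 in WT and 1.02 ± 0.00373 in KO lists, a difference of -0.0161.

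Shared regions were distributed over the transcript differently from the rest. Of regions that spanned a start codon, 13.4% were shared (612 of 4561), against 9.84% at the stop codon (444 of 4511), 7.91% in the 5' UTR (191 of 2414), 7.15% in the coding sequence (1494 of 20909) and 4.48% in the 3' UTR (158 of 3524). Long sites were shared more often than short ones: 3.53% of regions with a median site under 100 bases were shared, 8.24% from 100 to under 200 bases, 8.67% from 200 to under 400 and 18.9% at 400 bases or more. The order of the parts was not that of their site lengths. At 400 bases or more, 27.3% of start codon regions, 24.97% of coding regions, 20.4% of 5' UTR regions, 17.1% of stop codon regions and 10.6% of 3' UTR regions were shared, so the stop codon came below the coding sequence once length was held in 1 class. The longer a site, the more bases there are for another list's site to overlap, and the part this plays was not tested.

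**Figure D2:**
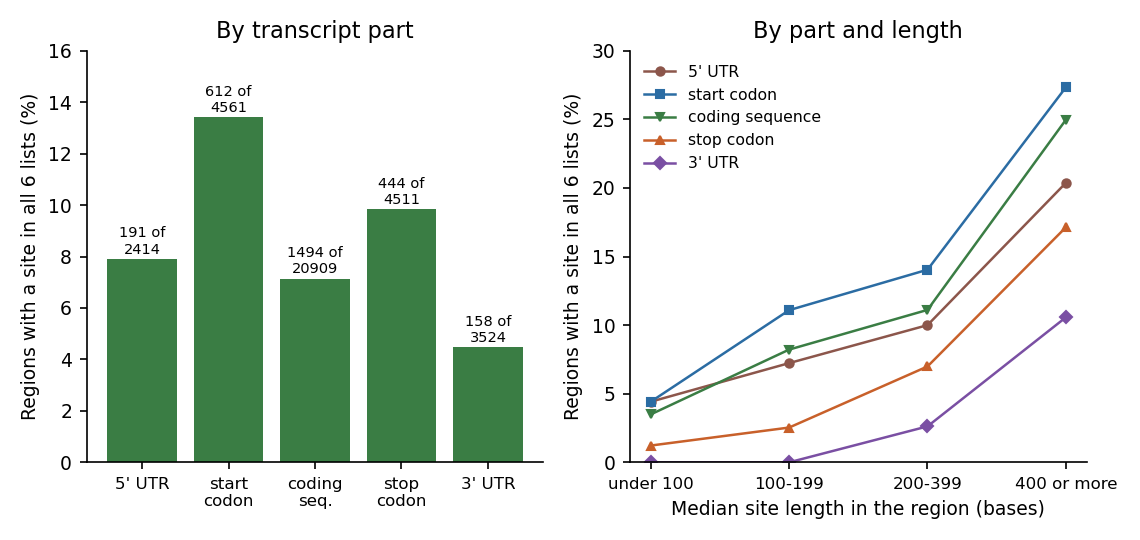
Left, percent of the merged regions in each transcript part that have a site in all 6 lists, with counts above the bars. Right, the same percent within classes of median site length in bases, 1 line per part. Start codon regions have the highest share in the 3 longer classes and 3' UTR regions the lowest in every class.

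The composition by part differed between genotypes by up to 1.18 percentage points. Both genotypes were counted over the same 2899 regions, of which 2722 had exactly 1 site in every list. The shares could differ only through the 254 regions whose sites were placed in more than 1 part, and through extra sites. The selection thus fixed most of the composition, and no conclusion is drawn from the p-values below. Start codon sites made up 20.7 ± 0.137% of the sites in shared regions in WT and 21.6 ± 0.0768% in KO lists, a difference of 0.881 points. Stop codon sites made up 15.6 ± 0.0841% and 16.8 ± 0.218%, a difference of 1.18 points. The share was lower in KO lists for the 3' UTR, at 6.45 ± 0.0638% against 5.37 ± 0.0658%, and for the coding sequence, at 50.9 ± 0.192% against 49.9 ± 0.266%. In each of these 4 parts every list of 1 genotype lay above every list of the other (two-sided exact permutation p = 0.1; Benjamini-Hochberg adjusted p = 0.125 over 5 parts). A p of 0.1 is the smallest that 3 lists against 3 can give, so no comparison of lists here could pass 0.05. The 5' UTR, at 6.40 ± 0.0797% and 6.35 ± 0.0622%, overlapped (exact permutation p = 0.6). Outside the shared regions the start codon share was 12.1 ± 0.0924% in WT and 13.1 ± 0.134% in KO, and the difference of these differences was -0.104 points (exact permutation p = 0.4). At the stop codon the sites outside made up 13.3 ± 0.163% and 12.7 ± 0.423%, the reverse order, and the difference of the differences was 1.80 points with no overlap of lists (exact permutation p = 0.1). For the 5' UTR the share outside was 6.03 ± 0.109% in WT and 7.26 ± 0.222% in KO, and the difference of the differences was -1.27 points, also with no overlap (exact permutation p = 0.1). The 3' UTR share outside was 10.7 ± 0.516% against 9.49 ± 0.0521%, a difference of -1.26 points beside -1.08 inside (exact permutation p = 0.8 for the difference of the differences). For the coding sequence the difference of the differences was -0.601 points (exact permutation p = 0.4). Regions outside were mostly called in 1 genotype only, so their composition was free to differ. Inside, the selection held the same regions in both genotypes. The contrast of inside and outside therefore cannot show that shared regions behaved differently.

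Sites in shared regions had higher folds than the other sites of their own list. Fold here is the authors' ratio of IP over input for a site. The median fold in shared regions was 10.4, 10.3 and 10.3 in WT lists 1, 2 and 3, against 7.11, 7.26 and 7.82 for the other sites. In the KO lists it was 8.57, 9.17 and 10.1 against 7.32, 6.68 and 6.75. As percentiles of all folds in the list, with 100 the highest, the medians in shared regions were 64.7, 63.4 and 60.3 in WT and 56.4, 63.7 and 66.7 in KO. Every list placed its shared sites above its own middle, and KO replicate 1 did so by the least.

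The share of sites in shared regions was larger at higher fold, but not up to the top of the KO lists. From the lowest to the highest 10% of sites by fold, it went from 4.84% to 27.9%, from 5.54% to 27.1% and from 7.92% to 27.8% in the WT lists. In KO lists 1, 2 and 3 the lowest 10% had 13.4%, 4.14% and 2.57%. The highest 10% there had 21.1%, 21.4% and 22.2%, each below the highest value reached in a lower class of the same list, which was 26.7%, 24.8% and 26.1%. In WT lists the highest share was in the highest 10%.

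**Figure D3:**
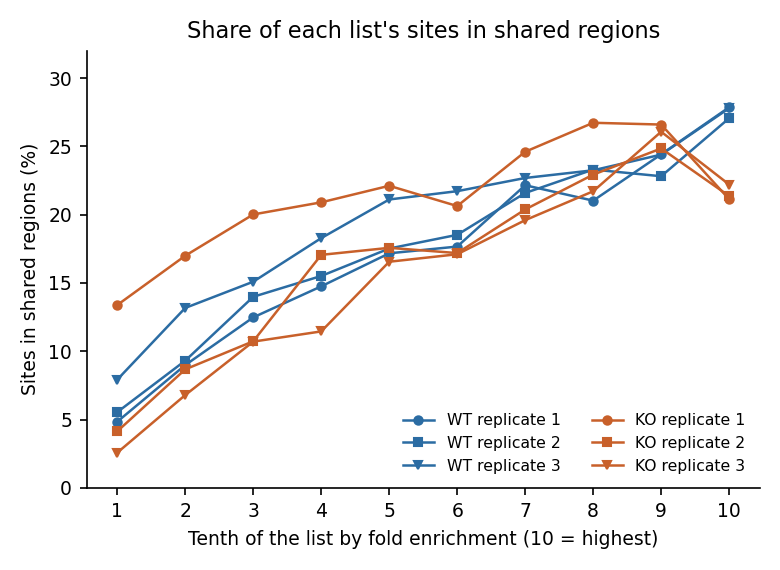
Percent of each list's sites that lie in shared regions (vertical axis), for 10 equal classes of the list by fold enrichment (horizontal axis, 10 is the highest), 1 line per list. All lines rise from the lowest class. The 3 WT lines peak in the highest class, and the 3 KO lines end at 21.1% to 22.2%, below their own peaks.

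A small set of regions stood near the top of every list. In 55 shared regions the fold was above the 90th percentile in all 6 lists, in 880 above the 50th and in 303 below the 50th. The region with the highest lowest-percentile spanned the start codon of TSC22D4, a leucine zipper transcription regulator, on chromosome 7 from 100074900 to 100075579. Its folds were 3936, 3763 and 4488 in WT lists 1, 2 and 3 and 296, 291 and 278 in KO lists 1, 2 and 3, with a lowest percentile of 99.3 over the lists. Both genotypes thus ranked it near the top while its WT folds were all above its KO folds. The upper end of the fold scale differed between the lists as a whole. The highest fold in any shared region was 13419, 11665 and 20236 in WT lists 1, 2 and 3 and 1906, 2578 and 2214 in KO lists 1, 2 and 3. A higher WT fold near the top of the lists therefore does not by itself show a change at a region.

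POLR2A, which encodes the largest subunit of RNA polymerase II, had a region at its stop codon, at 7416340 to 7417632 of chromosome 17, with folds of 525, 740 and 831 in WT and 210, 191 and 362 in KO. RERE, an atrophin family coregulator of nuclear receptors, had folds of 538, 686 and 513 in WT and 238, 235 and 173 in KO in its coding sequence. FGF2, a fibroblast growth factor, had folds of 456, 543 and 417 in WT and 364, 329 and 533 in KO in a region of chromosome 4 from 123748045 to 123748507 placed in the coding sequence. On the fold scale, FGF2 was the only region among the 10 of highest lowest-percentile in which WT and KO overlapped. By percentile within the list, FGF2 did not overlap and was higher in KO, at 98.6 to 99.05 in WT and 99.4 to 99.6 in KO. The percentiles of POLR2A, RERE, CABIN1 and APC did overlap between genotypes.

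CABIN1, an inhibitor of the phosphatase calcineurin, had folds of 661, 441 and 602 in WT and 217, 141 and 151 in KO in its coding sequence. There the KO sites were 287 bases long in every list and the WT sites 112, 131 and 112. PELP1, a scaffold protein of steroid receptor signalling and ribosome maturation, had folds of 452, 538 and 550 in WT and 189, 133 and 151 in KO. APC, the scaffold of the complex that degrades beta-catenin, had folds of 90.04, 119 and 113 in WT and 81.5, 67.4 and 70.0 in KO. CREB5, a transcription factor of the cAMP response element family, had 4352, 2987 and 4031 in WT and 78.5, 76.5 and 66.9 in KO at identical bounds in all lists. Its WT folds thus overlapped those of TSC22D4 while its KO folds overlapped those of APC. ZNF574, a zinc finger gene, had 547, 993 and 480 in WT and 85.6, 62.3 and 63.8 in KO at the stop codon. Also among the 10, the 3' UTR region of PDPK1, the kinase that activates AKT, held no base common to all lists. It lies in a gene with a near-identical copy, so its place is uncertain.

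Replicates of a genotype ranked the shared regions nearly alike, and the genotypes ranked them differently. Over the 2797 regions with a fold in all lists, Spearman's rank correlation of fold was 0.852 to 0.920 for the 6 pairs of lists within a genotype and 0.197 to 0.284 for the 9 pairs across genotypes. Pearson's r of log2 fold was 0.903 to 0.961 and 0.187 to 0.235. The points are regions, not replicates, and folds of neighbouring regions of a gene share its transcript level in the input. A region's percentile differed by a median of 5.26 points between WT replicates 1 and 2, by 5.09 between KO replicates 2 and 3, and by 19.7 between WT replicate 1 and KO replicate 2. The rank correlation between the mean percentile of the WT lists and that of the KO lists was 0.267 over all regions. It was 0.340 in the 788 regions with identical bounds, 0.229 in the others, and by part between 0.164 in the 3' UTR (n = 155) and 0.300 in the 5' UTR (n = 184).

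For most shared regions the percentiles of the genotypes did not overlap. All 3 KO lists ranked the region above all 3 WT lists in 928 of 2797 regions, 33.2%, and all WT lists ranked it above all KO lists in 970, 34.7%. These shares are the background for the percentiles of any single region named here, so that a region without overlap is not unusual. No such share is given for the folds themselves. Ranks from lists of different length do not show a change, and the regions were selected on being called in both genotypes. When ranks were taken over the shared regions alone, a setting chosen after the data were seen, the counts were 1005 and 935. Regions above the 50th percentile in every WT list and below it in every KO list numbered 268, and 264 had the reverse.

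**Figure D4:**
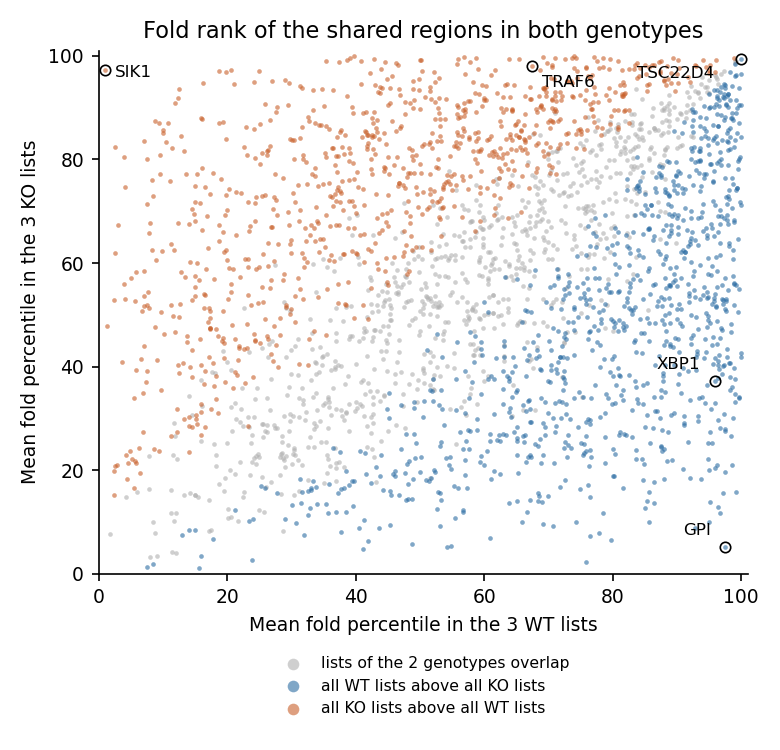
Each point is 1 of the 2797 shared regions with a fold in all lists, placed by its mean fold percentile in the 3 WT lists (horizontal) and the 3 KO lists (vertical). Colours mark regions without overlap between genotypes, 928 higher in KO and 970 higher in WT, and circles mark 5 genes named in the text.

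The regions farthest apart in mean percentile went from the bottom of 1 genotype's lists to the top of the other's. SIK1, a salt-inducible kinase, had folds of 2, 2.21 and 2.43 in WT and 90.7, 89.4 and 89.6 in KO in a 3' UTR region whose sites covered 255 bases in each WT list and 1007, 1007 and 1013 in KO. SIK1 has a near-identical copy on the same chromosome, so its counts are uncertain. EIF3A, the largest subunit of initiation factor eIF3, had folds of 3.58, 3.27 and 3.71 in WT and 43.8, 41.8 and 47.9 in KO at the stop codon, on chromosome 10 from 120797558 to 120797951. CDK5RAP3, part of a protein complex that attaches UFM1, had 2.58, 2.13 and 2.58 in WT and 22.9, 17.8 and 15.1 in KO, over 49 bases in WT and 29 in KO. PUM3, a nucleolar protein of the Pumilio family, had 3.65, 4.04 and 2.66 in WT and 49.7, 33.9 and 28.2 in KO, in a region of only 29 bases. TIMELESS, a replication fork protein, had 3.62, 3.36 and 3.40 in WT and 41.0, 33.9 and 25.4 in KO.

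In the other direction GPI, the glycolytic enzyme that interconverts glucose and fructose phosphates, had folds of 190, 117 and 193 in WT and 2.40, 2.98 and 3 in KO. Its site had the same 130 bases in all 6 lists, on chromosome 19 from 34887206 to 34887335 in the coding sequence. PLEKHB2, an endosomal protein, had 86.2, 116 and 118 in WT and 3.90, 3.16 and 3.32 in KO in its 3' UTR, where the WT sites covered 825 bases and the KO sites 423. ZNF593, a zinc finger gene, had 66.0, 41.0 and 59.3 in WT and 2.84, 3.10 and 3.89 in KO. HNRNPF, an RNA-binding protein of splicing, had 27.1, 42.0 and 46.5 in WT and 2.98, 3.53 and 3.05 in KO in its 5' UTR. TRAM1, a protein of the channel that takes nascent chains into the endoplasmic reticulum, had 68.0, 92.9 and 112 in WT and 2.88, 2.95 and 4.76 in KO at its start codon. A fold close to 2 was the lowest value kept in any list, and the WT folds of SIK1 and the KO folds of GPI lay close to it.

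**Figure D5:**
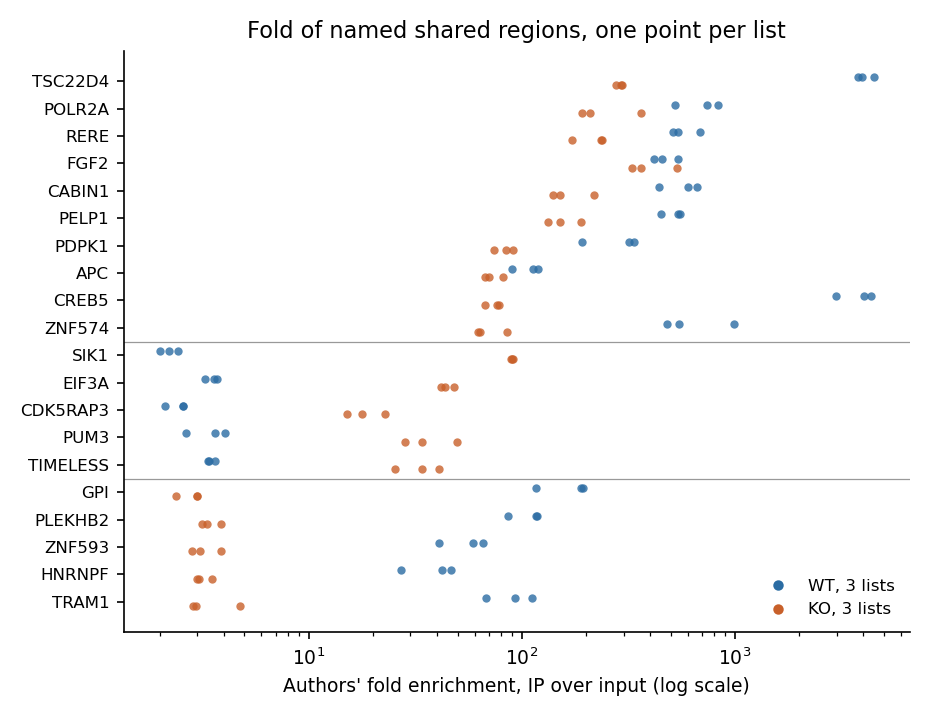
Authors' fold enrichment of IP over input (log axis) for the 10 shared regions ranked highest in every list (top), the 5 farthest higher in KO (middle) and the 5 farthest higher in WT (bottom). Each point is 1 list, WT in blue and KO in orange. Points of 1 genotype lie close together, and on this fold scale the genotypes overlap for FGF2 in the top group. By percentile within the list FGF2 does not overlap, and POLR2A, RERE, CABIN1 and APC do.

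Of the regions with identical bounds in all lists, the 5 of highest rank were those of CREB5, INCENP, TRIR, EIF3B and RAVER1. INCENP, a chromosomal passenger protein that anchors Aurora B, had folds of 74.2, 61.7 and 77.9 in WT and 95.6, 69.2 and 84.3 in KO, which overlapped. TRIR, a ribonuclease that interacts with telomerase RNA, had 81.4, 58.6 and 82.8 in WT and 76.4, 62.8 and 70.6 in KO at its start codon, and these also overlapped. EIF3B, a subunit of eIF3, had 45.0, 40.3 and 44.4 in WT and 271, 264 and 308 in KO over the same 582 bases at its start codon, on chromosome 7 from 2394474 to 2395055. RAVER1, a cofactor of the splicing repressor PTBP1, had 47.5, 37.2 and 44.6 in WT and 94.9, 67.4 and 46.6 in KO. Within the same bounds, then, folds of the genotypes overlapped for INCENP, TRIR and RAVER1 and did not for CREB5 and EIF3B. By percentile INCENP did not overlap, at 95.5 to 96.4 in WT and 96.5 to 97.4 in KO.

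The 5 longest shared regions spanned 6701 to 7539 bases. IGFN1, a protein with immunoglobulin and fibronectin type III domains, had the longest span, 7539 bases in the coding sequence, with folds of 67.0, 42.2 and 52.8 in WT and 97.5, 90.9 and 92.6 in KO. FLG, the filaggrin gene of the cornified layer of skin, spanned 7351 bases. Its WT sites covered 988, 1353 and 771 bases with folds of 16.2, 16.7 and 19.2, and its KO sites 7351, 7119 and 7118 bases with folds of 249, 214 and 186. PLEC, the cytoskeletal linker plectin, was called over the same 7249 bases in every list, with folds of 141, 188 and 190 in WT and 44.2, 46.5 and 50.2 in KO. TBC1D16, a regulator of RAB GTPases, and SRRM2, a scaffold of nuclear speckles, followed with 6894 and 6701 bases. SRRM2 was covered over 2718 bases in every WT list and over 6701 in every KO list.

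By part, further regions ranked high in every list. In the 5' UTR, SON, a splicing cofactor of nuclear speckles, had folds of 256, 188 and 238 in WT and 40.3, 39.1 and 38.8 in KO. MAPKAP1, a subunit of the mTORC2 kinase complex, had 56.7, 31.7 and 38.7 in WT and 38.7, 34.8 and 57.4 in KO at identical bounds, and the genotypes overlapped. At the start codon, PAPSS2, which makes the sulfate donor PAPS, had 46.6, 65.8 and 53.8 in WT and 63.6, 51.3 and 63.1 in KO, and SH2B3, an adaptor of cytokine receptors, had 43.0, 34.3 and 36.7 against 129, 129 and 97.5. At the stop codon, ATP5IF1, the inhibitor of ATP synthase, had 50.5, 46.6 and 49.96 in WT and 44.5, 42.2 and 58.5 in KO, while its sites covered 996 bases in WT and 271, 283 and 271 in KO. MTRNR2L12 and MTRNR2L9 also ranked among the highest 5 there, but are near-identical to mitochondrial ribosomal RNA, and their reads are uncertain. In the 3' UTR, SLC6A6, the taurine transporter, had 49.2, 58.1 and 56.9 in WT and 75.01, 81 and 82.4 in KO, and RAP1GAP2, a GTPase-activating protein of RAP1, had 282, 353 and 358 against 44.3, 56.2 and 47.4.

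The shared regions named 2030 genes, 19.9% of the 10198 genes with a site in the 5 lists whose rows are in order. Of these genes, 1485 held 1 shared region, 355 held 2, 118 held 3 and 72 held 4 or more. Genes with more regions held a shared one more often: 6.40% of genes with 1 region, 16.2% with 2 or 3, 27.4% with 4 to 6 and 48.7% with 7 or more. A site in each of the 5 lists did not always mean a site in the same place. Of 4464 genes with a site in each of the 5 lists, 2438, or 54.6%, had no shared region. A shared region also needs a site in KO replicate 1, which those 5 lists leave out. With KO replicate 1 left out, 2399 genes held a region common to the 5 lists. IL6, the interleukin, CTNNB1, which encodes beta-catenin, and STAT3, a transcription factor, each had 1 site in each of the 5 lists and no shared region. These examples were chosen after their values were seen, and whether they missed only KO replicate 1 was not tested. Conversely, 1114 of the 2030 genes also held a WT-only region, 984 a KO-only region, and 631 held both. In 222 genes every region was shared, but only 32 of these had more than 1 region.

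Among the genes with the most shared regions were genes of the cytoskeleton and of RNA processing. MYH9, the heavy chain of nonmuscle myosin IIA, held 12 shared regions of 22, of which 11 lay in the coding sequence, together with 5 WT-only and 0 KO-only regions. MPRIP, which binds myosin phosphatase, and PRPF6, a protein of the spliceosomal tri-snRNP, each held 8 of 17. PLEC held 7 of 14. ARHGAP23, a GTPase-activating protein, DDX54, an RNA helicase, and INTS1, a subunit of the Integrator complex, held 6 of 16, of 10 and of 30. EIF3C held 6 of 9, but has a near-identical copy, EIF3CL, and is uncertain. MYO9B, RBM19, SEPTIN9, SIPA1L3 and TNRC18 tied with 6.

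Gene groups were described by the share of their genes that held a shared region, beside 19.9% of all genes with a site, and the groups were written with earlier results of these data known. That share grew with the number of regions per gene, as given above, so each group's number is printed with it and no group is called high or low. In the translation machinery the share was 50% of aminoacyl-tRNA synthetases (10 of 20 genes with a region), 48.6% of translation factors (17 of 35) and 29.6% of cytosolic ribosomal proteins (8 of 27). The mean number of regions per gene was 5.1, 3.8 and 1.41, and 3.47 over all genes. SARS1, the seryl-tRNA synthetase, had folds of 12.6, 10.1 and 8.79 in WT and 14.4, 12.9 and 18.9 in KO at its start codon. AARS1, which charges alanine, had 3.76, 3.92 and 3.35 in WT and 3.44, 3.38 and 4.54 in KO. VARS1, which charges valine, had 12.4, 13.01 and 12.5 against 8.32, 7.24 and 9. Over the 13 shared regions of synthetase genes the median of the lowest percentile was 7.26, so in at least 1 list most of them ranked near the bottom.

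Among the translation factors, EEF2K, the kinase of elongation factor 2, had folds of 37.1, 50.04 and 34.2 in WT and 17.7, 22.01 and 12.01 in KO in its 5' UTR. EIF3F, another eIF3 subunit, had 31.3, 18.7 and 26.6 in WT and 9.21, 10.4 and 11.3 in KO. EIF4G1, the scaffold of the cap-binding complex, had 11.5, 14.2 and 14.1 in WT and 10.5, 11.7 and 12.9 in KO at its stop codon, and overlapped. Ribosomal protein genes have many processed copies, so their regions are uncertain. RPL5, of the large subunit, had 14.5, 18.9 and 15.99 in WT and 5.45, 5.67 and 5.31 in KO at its stop codon, and RPL35 had 4.30, 4.67 and 4.65 against 4.66, 5.02 and 5.42.

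Ribosome biogenesis factors held shared regions in 15 of 42 genes (35.7%; median 5 regions per gene). TCOF1, the treacle protein of ribosomal DNA transcription, held 5, with folds of 19.4, 19.4 and 20.5 in WT and 21.3, 21.1 and 24.0 in KO at its start codon. NCL, nucleolin, held 3 of its 3 regions, with folds of 12.0, 14.1 and 13.5 in WT and 12.8, 14.6 and 15.8 in KO in the coding sequence. MDN1, the midasin ATPase of the large subunit, had 13.5, 16.5 and 10.7 in WT and 43.2, 24.3 and 42.2 in KO. RNA modification enzymes held them in 9 of 33 (27.3%; median 3), NAT10 among them. NSUN5, a methyltransferase of 28S ribosomal RNA, had 47.1, 49.0 and 48.7 in WT and 7.06, 6.33 and 5.75 in KO at its stop codon. PUS1, a pseudouridine synthase, had 30.6, 11.9 and 33.3 in WT and 14.1, 27.6 and 23.4 in KO, with overlap.

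Splicing factors and heterogeneous nuclear ribonucleoproteins held shared regions in 24 of 50 genes (48%), chromatin modifiers in 29 of 75 (38.7%) and nuclear transport factors in 16 of 47 (34.0%). Their median numbers of regions per gene were 3.5, 8 and 6. HNRNPU had folds of 21.4, 32.4 and 26.9 in WT and 79.0, 75.7 and 86.7 in KO at its start codon, and HNRNPD had 31.0, 34.2 and 34.6 against 54.6, 55.5 and 57.8. HNRNPM, with 4 shared regions of 7, had 31.0, 35.8 and 41.4 in WT and 18.9, 16.7 and 18.5 in KO. These 3 RNA-binding proteins thus went different ways. Among chromatin genes, ARID1A, a subunit of the SWI/SNF remodeller, had 17.0, 23.8 and 28.7 in WT and 31.0, 26.4 and 33.5 in KO. KDM2B, a histone demethylase, had 43.6, 47.2 and 35.3 in WT and 46.4, 55.6 and 54.9 in KO in the coding sequence. KPNA2, an importin alpha, had 62.9, 44.5 and 54.4 in WT and 28.8, 31.6 and 31.0 in KO at its start codon.

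In the endoplasmic reticulum stress group 5 of 30 genes held a shared region (16.7%), near the share of all genes, and in the cytosolic chaperones 10 of 31 (32.3%), both with a median of 2 regions per gene. XBP1, a transcription factor of the unfolded protein response, had folds of 87.3, 54.0 and 82.0 in WT and 4.78, 7.18 and 5.45 in KO at its start codon, on chromosome 22 from 29196286 to 29196542. PDIA4, a disulfide isomerase, had 156, 119 and 150 in WT and 32.8, 35.6 and 43.3 in KO. PPP1R15A, the regulatory subunit that dephosphorylates eIF2 alpha, had 8.52, 5.09 and 5.65 in WT and 11.5, 11.6 and 12.8 in KO. HSPH1, a chaperone of the HSP110 family, had 8.76, 5.53 and 6.50 in WT and 57.9, 44.6 and 45.8 in KO at its start codon. HSPA1A has a near-identical copy, HSPA1B, and is not described further.

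Matrix genes held shared regions in 17 of 52 (32.7%), integrin and adhesion genes in 9 of 26 (34.6%) and cytoskeletal giants and linkers in 23 of 50 (46%), with medians of 5.5, 5 and 7 regions per gene. LAMB2, a laminin chain of basement membranes, had folds of 138, 251 and 206 in WT and 16.9, 31.8 and 19.98 in KO in the coding sequence. SERPINH1, the collagen chaperone, held 3 of its 3 regions as shared, with 66.8, 64.6 and 72.0 in WT and 24.3, 15.2 and 22.6 in KO at its start codon. AGRN, which encodes agrin, had 85.4, 97.6 and 98.3 in WT and 32.2, 34.5 and 38.1 in KO. COL18A1, a collagen of basement membranes, went the other way with 27.9, 14.8 and 13.3 against 49.5, 48.9 and 38.4. TLN1, the integrin activator talin, had 28.7, 35.7 and 35.8 in WT and 36.5, 37.0 and 37.2 in KO. TNS3, a tensin of focal adhesions, had 145, 210 and 378 in WT and 22.6, 18.4 and 16.8 in KO.

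Of 25 genes of TGF-beta signalling with a region (median 3), 5 held a shared one (20%), close to the 19.9% of all genes. TGFB1, the ligand, had folds of 25.4, 21.3 and 21.4 in WT and 10.98, 15.1 and 17.7 in KO at its start codon, on chromosome 19 from 41858595 to 41859835. SMAD3, which carries the signal to the nucleus, had 7.02, 6.07 and 5.59 in WT and 2.80, 3.17 and 4.35 in KO in its coding sequence. SKI, a corepressor that binds SMAD proteins, had 18.2, 11.3 and 14.2 in WT and 55.2, 62.2 and 80.8 in KO. SMURF1, a ubiquitin ligase of the pathway, had 15.8, 13.7 and 11.3 in WT and 4.77, 3.58 and 3.76 in KO in its 3' UTR. TGIF1, a repressor of SMAD targets, had 11.2, 8.90 and 9.80 in WT and 3.99, 5.2 and 4.68 in KO. The folds of the genotypes did not overlap in any of these genes, with SKI higher in KO and the others higher in WT. By percentile most shared regions were also without overlap, 34.7% higher in WT and 33.2% higher in KO. No such share is given for folds, so no direction is read for this group.

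Glycolysis and glucose genes held shared regions in 12 of 23 (52.2%) and oxidative phosphorylation genes in 4 of 20 (20%), with medians of 4 and 2 regions per gene. ALDOA, the aldolase, had folds of 49.8, 46.4 and 56.6 in WT and 7.16, 7.79 and 8.41 in KO in its 5' UTR. PFKFB3, which sets the level of fructose 2,6-bisphosphate, had 20.7, 27.1 and 27.4 in WT and 23.9, 26.2 and 25.3 in KO, and PGAM1, phosphoglycerate mutase, had 10.8, 9.15 and 9.30 against 10.4, 10.5 and 11.6. TKT, the transketolase, had 26.0, 20.3 and 27.4 in WT and 26.9, 32.3 and 28.7 in KO. GPI and ALDOA thus stood far apart between genotypes while PFKFB3, PGAM1 and TKT overlapped. NDUFA10, a subunit of complex I, held 3 shared regions, with 10.3, 9.20 and 10.4 in WT and 16.5, 16.5 and 19.01 in KO.

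Wnt, Notch and Hippo genes held shared regions in 15 of 35 (42.9%), inflammation and NF-kappaB genes in 7 of 33 (21.2%), cell cycle genes in 12 of 43 (27.9%) and p53 response genes in 2 of 17 (11.8%). The median numbers of regions per gene were 4, 2, 4 and 2. WWTR1, the TAZ coactivator of the Hippo pathway, had folds of 162, 194 and 171 in WT and 48.0, 24.2 and 29.2 in KO at its start codon. DVL1, which relays Wnt signals, had 25.4, 24.8 and 18.4 in WT and 21.98, 21.4 and 24.3 in KO. TRAF6, a ubiquitin ligase of interleukin and Toll-like receptor signalling, had 14.8, 8.58 and 12.7 in WT and 138, 117 and 104 in KO in its 5' UTR, on chromosome 11 from 36531598 to 36531863. CXCL1, a neutrophil chemokine, had 21.3, 18.3 and 21.9 in WT and 9.80, 10.1 and 10.2 in KO at its stop codon. MKI67, the proliferation marker, had 70.6, 81.9 and 91.6 in WT and 18.7, 18.0 and 19.2 in KO. BBC3, the proapoptotic PUMA, had 24.7, 19.7 and 22.4 against 16.8, 7.92 and 9.06, and SESN2, a stress-induced sestrin, had 14.8, 16.2 and 9.33 against 21.7, 23.9 and 29.1.

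Of 34 genes listed for the proximal tubule and its injury, 19 had a region and 3 of these a shared one (15.8%), near the share of all genes. Genes without any region included AQP1, HNF4A, SLC34A1, SLC22A6 and SLC5A2. Epithelial and mesenchymal genes held a shared region in 8 of 24 (33.3%). The 2 groups had medians of 2 and 2.5 regions per gene. ANPEP, the brush border aminopeptidase N, had folds of 6.53, 7.37 and 6.04 in WT and 20.8, 19.3 and 21.5 in KO at its start codon, and GGT1, a brush border gamma-glutamyltransferase, had 12.95, 15.7 and 16.2 against 14.5, 11.1 and 10.3. VIM, the intermediate filament vimentin, had 38.0, 39.8 and 42.8 in WT and 17.5, 17.7 and 18.7 in KO in its only region. KRT8, an epithelial keratin, had 27.1, 16.4 and 28.2 against 7.75, 8.37 and 8.28, and CTNNA1, the alpha-catenin of adherens junctions, had 60.9, 64.7 and 69.4 against 5.77, 6.24 and 6.29. Markers of other cells of kidney and blood had any region in 6 of 33 genes and a shared one in 2, LYZ, the lysozyme of phagocytes, and PDGFRB, a receptor of mesenchymal cells. How strongly these markers were expressed cannot be read from called sites.

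Over 437 annotation terms in the files with at least 50 genes with a region, the median share of genes with a shared region was 23.4%. The highest shares were those of leukocyte transendothelial migration (39.2%, 20 of 51 genes), focal adhesion as a cellular component (37.8%, 112 of 296), beta-catenin binding (37.5%), response to hypoxia (37.5%) and angiogenesis (37.3%). The spliceosome pathway was also among the 15 highest (36.0%, 40 of 111). The lowest were those of cilium assembly (9.59%, 7 of 73), response to drug (9.62%, 10 of 104), xenobiotic metabolic process (9.68%) and dolichol-linked oligosaccharide biosynthesis (9.80%, 5 of 51). Terms share genes, and terms at both ends had similar numbers of regions per gene in places: the mean was 3.59 for the spliceosome and 3.57 for cilium assembly, but 4.68 for focal adhesion and 2.76 for xenobiotic metabolism. No enrichment was tested.

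The shared regions were uneven over chromosomes. Chromosome 19 had the highest share of its regions shared among the autosomes, 14.8% (362 of 2445), followed by 20 (10.6%), 22 (10.6%) and 17 (9.85%), while 18 (4.45%, 21 of 472) and 13 (4.70%, 27 of 575) had the lowest. Chromosome 19 holds many zinc finger genes. Of 238 regions in those genes 11 were shared, 4.62%, against 15.9% of the 2207 other regions of the chromosome. Zinc finger genes on other chromosomes had a similar share, 4.72%, against 7.63% of the other regions there. Promoter GC content, over 250 bases before to 50 after the gene start in RefSeq sequences of GRCh38.p14, had a median of 65% in genes with a region but no shared one (6582 of 8159 matched). It was 67% in genes with 1 shared region, 67.5% with 2 or 3 and 68.5% with 4 or more, and these classes overlapped widely, with quartiles of 58% and 71.7% in the first and 61.5% and 73.9% in the last. Among genes with no shared region the median also rose with regions per gene, from 64% with 1 region to 66.7% with 7 or more. With 7 or more regions it was 67.7% in genes with a shared one, and it was also higher with a shared one in the classes of fewer regions.

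Regions at the edge of the rule had no base common to all lists, or missed 1 list. Among the regions with no base common to all lists, SLC35E2A had WT folds of 500, 824 and 671 and KO folds of 12.4, 11.7 and 14.7 over a span of 1202 bases in the 3' UTR, and has a near-identical copy. TBX15, a T-box factor, had 5.64, 4.21 and 5.84 in WT and 5.47, 10 and 7.6 in KO, and GATAD2B, a subunit of the NuRD complex, had 6.2, 4.7 and 8.04 against 7.61, 10.3 and 10.1. Just outside, a region of PLXNA1, a semaphorin receptor, was called in every list but WT replicate 2, with folds of 240 and 376 in WT and 42.7, 47.8 and 52.3 in KO. TCF3, a helix-loop-helix transcription factor, missed only KO replicate 1, with 50.9, 43.7 and 34.3 in WT and 33.0 and 34.4 in KO. A region of KDM2B other than the shared one missed only WT replicate 2, with 42.8 and 29.7 in WT and 43.8, 30.2 and 48.9 in KO. The regions of PLXNA1, TCF3 and KDM2B were named as the highest ranked of the 1533 regions with a site in 5 lists. Their folds were high by that choice and do not describe the other regions excluded for 1 list.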

How the data were processed

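RNA of HK-2 cells was fragmented and pulled down with an antibody against ac4C, per the labels' protocols, and IP and input libraries were sequenced. Per the submitters' processing notes, the tools included HISAT2 2.0.4 and cutadapt 1.9.3 and the genome was hg38, though their roles are not stated. Sites were called with MACS, per the peak names in the files, in 1 list per pair of IP and input; its version is not given in the sources. The deposited score per site equals the column of significance in the files and is on the scale of MACS, minus 10 times log10 of the p-value. The deposited fold is the authors' ratio of IP over input at the site. The deposited false discovery rate of a site, in percent, is also the authors' own. The deposited starts, ends and lengths are in bases. None of these values comes with counts, so the depth per sample is unknown, no interval could be given, and precision is limited by the number of lists.

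Sites were merged with Python 3.11.15, pandas 2.3.3 and numpy 2.4.6 wherever they overlapped by at least 1 base, strand ignored. In KO replicate 1, 1 of 13818 rows matched between coordinates and gene columns; 13303 were rejoined on equal score and length, ties settled by chromosome, and 515 were not. On simulated data, the gene columns of the other lists were shuffled: the share of rows joined was 98.1% to 99.2%, and the gene was right in 100% of those. The fold percentile of a region in a list is that of its highest site among all sites of the list. Gene symbols were updated with RefSeq's table of GRCh38.p14, and 113 to 172 sites per list kept the name in the file. Over the lists 17 rows were empty and not analysed here.

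Samples were grouped by title. Shares of transcript parts per list were compared by exact permutation of the difference of means (two-sided), with Benjamini-Hochberg adjustment over the 5 transcript parts. No label says whether the replicates are separate cultures, so these p-values may measure technical spread only, and no batch is labelled. The replicate numbers are shared between genotypes; over 2797 regions the deviations of same-numbered lists from their genotype's mean correlated at -0.0173, -0.0243 and -0.0142, so the numbers were not used as pairs. The regions and the 23 gene lists were chosen with earlier results of these data known. Genes were named by rule: the 10 regions with the highest lowest-percentile, the 10 genes with the most shared regions (2 of them are not reported here), 5 regions per direction with the largest difference of mean percentile, the 5 longest and the 5 of highest rank with identical bounds, up to 4 genes per gene list and 5 regions per part, and 3 regions on each side of the rule. Alternatives tried were a common base in all lists, an overlap of 50% of the shorter site, a fold of at least 4, a score of at least 100, sites of at least 50 bases, each list left out, and replicate pairs.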

Additional observations from a re-analysis of the deposited data

How the results depend on the processing

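The differences between genotypes in length, sites per region and the shares of the 5 transcript parts kept their direction under every alternative run. With all lists kept, the number of shared regions was between 2086 and 2899 and the genes with one between 1554 and 2030. With 1 list left out, the ranges were 3006 to 3547 and 2099 to 2399, the highest number of regions without KO replicate 1. The difference in length, KO minus WT, was 14.2 to 20.3 bases with all lists and 12.4 to 15.9 with 1 left out. The start codon share differed by 0.770 to 1.09 and 0.717 to 0.988 points, the stop codon share by 1.18 to 1.42 and 1.002 to 1.33, the coding share by -1.39 to -0.799 and -1.04 to -0.759, the 3' UTR share by -1.23 to -1.03 and -1.13 to -0.98, the 5' UTR share by -0.143 to -0.0457 and -0.0936 to -0.00631, and sites per region by -0.0189 to -0.0156 and -0.0168 to -0.0129. In a paired analysis with the replicate block the values were 15 bases, 0.881 points and -0.0161, and the numbers do not mark pairs. Alternatives for the other 4 parts, and those that follow, were chosen after seeing the data. Counts of regions with non-overlapping fold percentiles were 960 to 1064 higher in KO and 1006 to 1116 higher in WT with 1 list left out. Which direction had more regions depended on the setting: 928 against 970 with all lists, but 1064 against 1012 without KO replicate 1 and 1005 against 935 with ranks over the shared regions alone. Merging by strand was not run, because the files used here give no strand. With 3 lists per genotype no exact test can fall below 0.1, and without counts the depth behind a site limits every value in a way that could not be measured.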
